A study of Homo sapiens with 24 samples.

Results

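HT-144 melanoma cells given the SREBF1 antisense oligonucleotide S4 were compared with the same cells given a non-targeting oligonucleotide, across all genes. The members were chosen by sample title: 4 lane files of the group ASO-SREBF1-S4 and 4 of the group ASO-Neg, together 8 of the 24 lane files in the series. The 4 lanes of a group came from 1 library and were summed, so the comparison rests on 2 of 6 libraries and has no replicate check of its own.

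SREBF1 encodes SREBP1, a transcription factor that is held in the endoplasmic reticulum membrane, is cut free in the Golgi when sterols are low, and then switches on genes of fatty acid synthesis. Its relative SREBP2, encoded by SREBF2, acts more on cholesterol genes. An antisense oligonucleotide (ASO) is a short modified single strand that pairs with a complementary RNA, and many are built so that RNase H in the nucleus cuts the RNA of the pair, introns included.

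HT-144 is an established human line grown from a melanoma metastasis. By the series title, the question was which effects are specific to the SREBF1-depleting ASO. All cells grew for 3 days in medium with insulin, transferrin and selenium and were transfected with the lipid reagent RNAiMAX. The groups were mock (labelled only as such), siNegative and siSREBF1 (pooled siRNAs at 50 nM), and ASO-Neg, ASO-SREBF1-S1 and ASO-SREBF1-S4 (ASOs at 5 nM). Every group is 1 culture condition of 1 cell line, and nothing in the labels describes separate cultures within a group.

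The S4 library held 15901894 gene counts and the ASO-Neg library 17415823, and the other 4 held 12916478 to 47900277. Levels are given as CPM, the count scaled to library size, after TMM scaling over the 6 libraries. Before that scaling a count of 3 was worth 0.189 CPM in S4 and 0.172 in ASO-Neg. Melanocyte lineage genes were present in both libraries. PMEL, a melanosome fibril protein, stood at 2220 CPM in S4 and 2700 in ASO-Neg, SOX10 at 445 and 486, MITF at 396 and 467, TYR at 151 and 218, DCT at 563 and 812, and MLANA at 11.9 and 15.5.

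SREBF1 RNA was lower in all 3 libraries that received a SREBF1 reagent. The gene (ENSG00000072310) lies on the minus strand of chromosome 17, from 17810399 to 17837002 (GRCh38). In S4 its level was 70.2 CPM. The controls mock, siNegative and ASO-Neg had 231, 249 and 217 CPM, and the siSREBF1 and S1 libraries had 54.8 and 77. The lanes of S4 ran from 66.3 to 73.7 CPM and those of ASO-Neg from 198 to 225. Lanes of 1 library show counting noise only and are not replicates. The S4 level was 32.3% of ASO-Neg, a log2 ratio of -1.63 with a 95% counting interval of -1.73 to -1.53, and the ratio to mock was -1.72. In edgeR's quasi-likelihood test of S4 against the 3 control libraries it fell by 1.73 on the log2 scale (SE 0.1, adjusted p = 9.06e-07). SREBF2 stood at 600, 567 and 592 CPM in mock, siNegative and ASO-Neg and at 508 in S4. Its log2 ratio to ASO-Neg was -0.22, and it did not pass the test against the controls (edgeR adjusted p = 0.148).

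In S4, 42 genes were at least 2-fold higher than in ASO-Neg and 27, SREBF1 among them, at least 2-fold lower. That is 0.426% and 0.274% of the 9855 genes with 10 CPM or more in 1 of the 2 libraries. Some higher genes reached that level in S4 alone, such as CLDN4, and some lower genes in ASO-Neg alone, such as COL8A1. The counts are thus partly set by this rule. The genes that were lower included a collagen, a clathrin uncoating factor, a septin and an endoplasmic reticulum shaping protein. Those that were higher included a claudin, an adaptor of TNF receptors, a heparan sulfate sulfatase and a pair of neighbouring non-coding RNAs. At 1.5-fold the counts were 213 higher (2.16%) and 139 lower (1.41%). The log2 ratios had an SD of 0.26 over the 9855 genes for S4 over ASO-Neg and 0.29 for S4 over mock, beside 0.17 for ASO-Neg over mock.

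**Figure D1:**
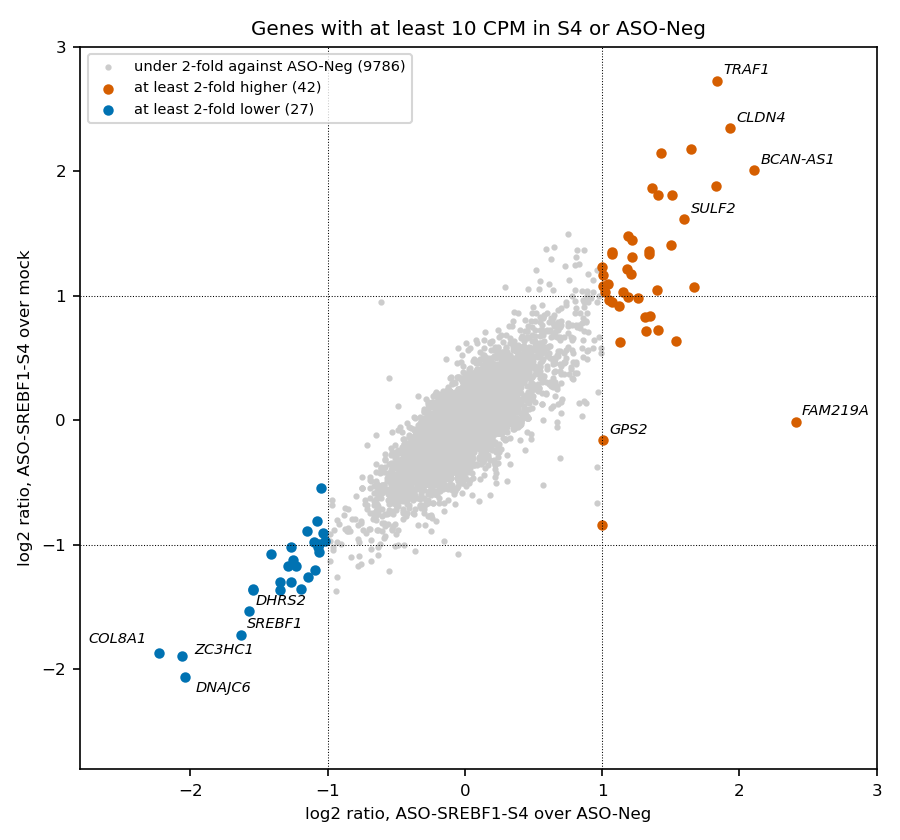
Each point is a gene with at least 10 CPM in S4 or ASO-Neg, with its log2 ratio of S4 to ASO-Neg on the x axis and of S4 to mock on the y axis; both axes share the S4 library. The 27 blue genes all lie below 0 on both axes, while FAM219A (2.41 against ASO-Neg, -0.01 against mock) and GPS2 (1.01 and -0.16) are high on the x axis alone.

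The 3 lowest ratios belonged to COL8A1, ZC3HC1 and DNAJC6, none of which was on a lipid list. COL8A1, a short-chain collagen of basement membranes, had 28.7, 31 and 37 CPM in mock, siNegative and ASO-Neg, 29.4 in siSREBF1, 35.2 in S1 and 7.79 in S4. The S4 lanes ran from 6.78 to 9.82 CPM, a range that shows counting noise within 1 library. Its log2 ratio to ASO-Neg was -2.23 (95% counting interval -2.54 to -1.97) and to mock -1.87. ZC3HC1, a nuclear envelope protein also called NIPA, stood at 33.7 CPM in ASO-Neg, between 29.8 and 39.4 in the other 4 libraries, and at 7.98 in S4 (log2 ratio -2.06, interval -2.36 to -1.8). DNAJC6, the clathrin uncoating co-chaperone auxilin, stood at 20.2 CPM in ASO-Neg, between 20.4 and 23.7 in the other 4, and at 4.85 in S4 (log2 ratio -2.04, interval -2.43 to -1.7). In these 3 genes the S4 library stood alone, and the other SREBF1 reagents gave levels near the controls.

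The rest of the 15 lowest fell into those seen in S4 alone and those shared with another SREBF1 reagent. AGTPBP1, which trims glutamates from tubulin, went from 35.1 CPM in ASO-Neg to 12 in S4, and SEPTIN8 from 115 to 45. RTN4, which bends the tubules of the endoplasmic reticulum, went from 354 to 145, with 313 to 357 CPM in the other 4 libraries. DHTKD1, a mitochondrial enzyme of lysine breakdown, went from 81.1 to 31.7 CPM. RPE, an epimerase of the pentose phosphate pathway, went from 71 to 30.2, and KIF21A, a kinesin motor, from 33.4 to 14.1. In each of these genes S4 was the lowest of the 6 libraries and the other 5 lay close together. NPL, a sialic acid lyase, and TRPM8, a cold-sensing channel, were likewise lowest in S4, at 4.11 and 14.1 CPM against 12.1 and 34 in ASO-Neg.

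Another 3 of the 15 were also low with other SREBF1 reagents. FABP7, which carries fatty acids in the cytoplasm, stood at 67.3, 58.2 and 65.7 CPM in mock, siNegative and ASO-Neg and at 26, 33.8 and 27.2 in siSREBF1, S1 and S4. IL21R, a cytokine receptor, stood at 17.1, 17.7 and 21.6 CPM in the controls and at 4.24, 5.14 and 8.1 in the same 3. SREBF1 itself was the third. DHRS2, a short-chain dehydrogenase, went the other way in S1: it stood at 81.7 CPM in ASO-Neg, 27.4 in S4 and 121 in S1.

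Among the higher genes, CLDN4 and TRAF1 had low levels in the controls. CLDN4, a claudin of tight junctions, had 2.04, 2.18 and 2.77 CPM in mock, siNegative and ASO-Neg, 6.7 in siSREBF1, 2.14 in S1 and 10.8 in S4. Its S4 lanes ran from 10.6 to 11.1 CPM and its ASO-Neg lanes from 1.39 to 5.19, which again shows counting noise only. The S4 count was 176 against 47 in ASO-Neg, a log2 ratio of 1.93 with a counting interval of 1.49 to 2.46. TRAF1, an adaptor on TNF receptors, stood at 2.51, 3.24 and 4.71 CPM in the controls, 4.76 in siSREBF1, 7.9 in S1 and 17.1 in S4. Its log2 ratio was 1.84 against ASO-Neg and 2.73 against mock, since ASO-Neg was the highest of the controls.

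A pair of non-coding RNAs on chromosome 1 rose in S4. BCAN-AS1 (156637783 to 156641004, minus strand) stood at 3.44 to 4.15 CPM in the 3 controls, 5.8 in siSREBF1, 4.25 in S1 and 17.1 in S4. The RNA next to it, ENSG00000272405 (156641666 to 156644887, minus strand), stood at 12.8, 13.3 and 13.4 CPM in the controls, 35.6 in siSREBF1, 16.4 in S1 and 47.7 in S4. Their log2 ratios to ASO-Neg were 2.11 and 1.83. BCAN, which encodes the proteoglycan brevican in the same region, had 0 counts in S4 and 0.0589 CPM in ASO-Neg.

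Other genes among the 15 highest had roles of several kinds. SULF2, which removes sulfates from heparan chains at the cell surface, stood at 20 to 25.5 CPM in the other 5 libraries and 61.7 in S4. ENC1, an actin-binding kelch protein, stood at 28.1 to 41.8 in the other 5 and 99 in S4. CXCL8, the neutrophil chemokine interleukin 8, stood at 7.36, 11 and 9.06 CPM in the controls and 26.1 in S4, and MMP1, a collagenase, at 6.03, 9.71 and 10 and 27.2. Both were higher still in siSREBF1, at 48.2 and 48.7 CPM. CPE, a carboxypeptidase of prohormones, stood at 5.59 CPM in ASO-Neg and 18 in S4, and SSUH2 at 6.83 and 21.6. PRSS33, FAM131B, CA11 and GAS6-AS1 had log2 ratios between 1.4 and 1.54. Their ratios against mock were 0.64, 1.41, 0.73 and 1.05, so PRSS33 and CA11 were under 2-fold there.

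**Figure D2:**
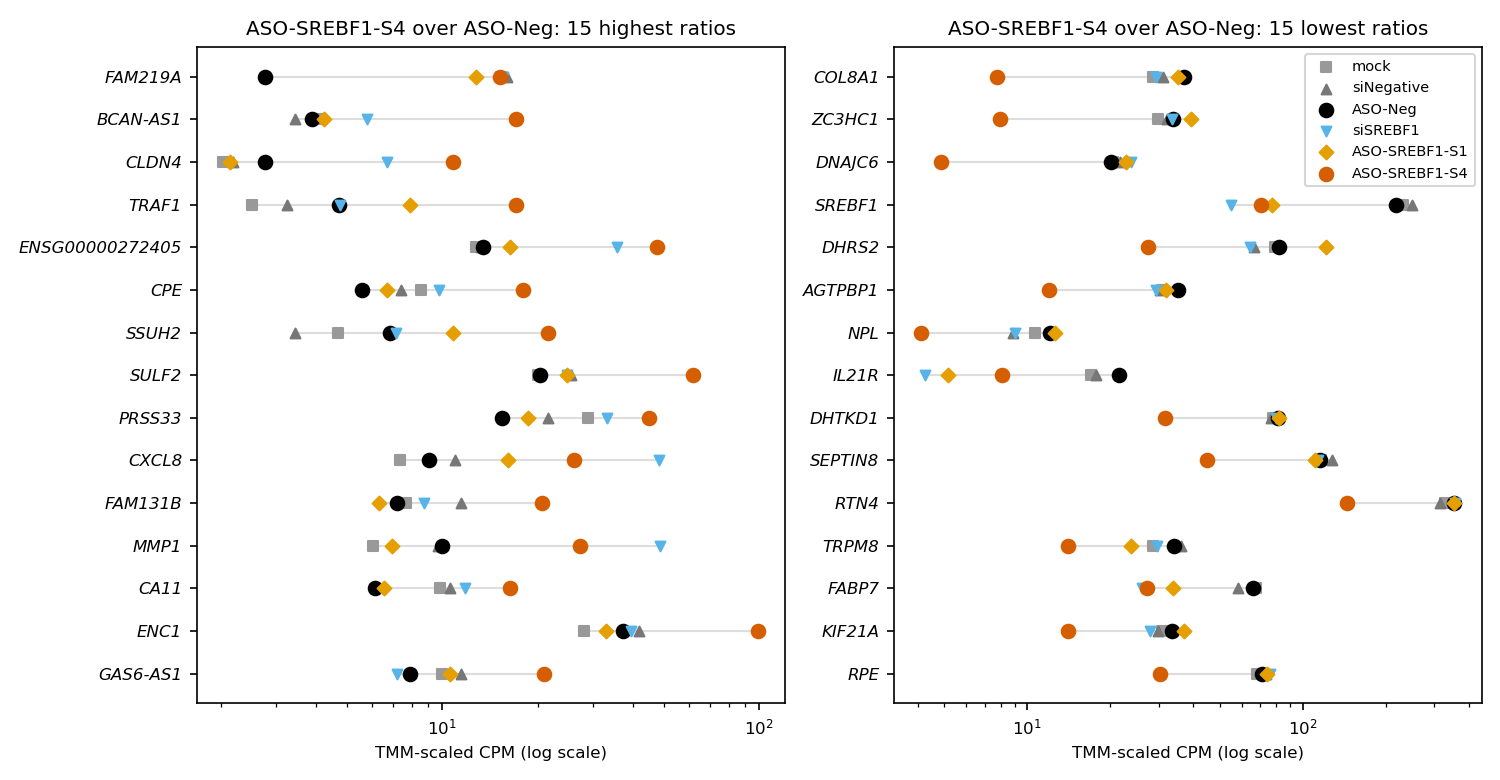
TMM-scaled CPM on a log axis in each of the 6 libraries for the 15 highest (left) and 15 lowest (right) log2 ratios of S4 to ASO-Neg, 1 symbol per library. On the right, S4 is the lowest of the 6 symbols in all genes but SREBF1, IL21R and FABP7; on the left FAM219A stands out because ASO-Neg (2.77 CPM) and not S4 (15.2 CPM) is far from the rest.

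In 3 genes of the higher group, ASO-Neg and not S4 stood apart from the other libraries. FAM219A had the highest ratio of all at 2.41, yet stood at 15.3 CPM in mock, 16 in siNegative, 2.77 in ASO-Neg, 15.5 in siSREBF1, 12.8 in S1 and 15.2 in S4. Its log2 ratio against mock was -0.01. GPS2, a subunit of a corepressor complex, stood at 12.3 and 11.6 CPM in mock and siNegative, 5.42 in ASO-Neg and 11 in S4. The non-coding RNA ENSG00000269968 stood at 37.3 and 29.4 CPM in mock and siNegative, 10.4 in ASO-Neg and 20.9 in S4, so it was higher than ASO-Neg and lower than mock. None of the 3 lay outside the range of the 3 controls.

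The other members kept their direction against other controls. Of the 42 higher genes, 28 were also 2-fold over mock, 39 were 1.5-fold over mock, 18 were 2-fold over siNegative, and 39 lay above all 3 controls, as 33.6% of the 16297 measured genes did. Of the 27 lower genes, 20 were 2-fold under mock, 26 were 1.5-fold under mock, and all 27 lay below all 3 controls, as 32.1% of measured genes did. The 1 exception at 1.5-fold was KHDRBS3, an RNA-binding protein, with -1.05 against ASO-Neg and -0.54 against mock. These counts are largely set by the choice of the genes, since S4 enters every ratio and ASO-Neg is 1 of the controls. The shares of all measured genes include genes not picked in this way. All genes considered, 130 of 9936 were 1.5-fold higher against both ASO-Neg and mock (1.31%) and 106 were lower against both (1.07%).

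Set against the spread between mock, siNegative and ASO-Neg in edgeR's quasi-likelihood test, 487 genes were higher in S4 (2.99% of 16297) and 492 lower (3.02%) at an adjusted p of 0.05. At an unadjusted p under 0.05 there were 3439. This test has 2 residual degrees of freedom, takes the lone S4 library to vary as the controls do, and the controls received different reagents. Of the 42 higher genes 38 passed it, and of the 27 lower genes all 27 did. FAM219A, GPS2, ENSG00000269968 and PTGS1, a cyclooxygenase, were the 4 that did not. Much of that share is set by the choice of the genes, since S4 and ASO-Neg enter the test as well. By this test COL8A1 fell by 2.05 (SE 0.17, edgeR adjusted p = 1.34e-05), ZC3HC1 by 2 (SE 0.14, edgeR adjusted p = 4.87e-06) and DNAJC6 by 2.1 (SE 0.16, edgeR adjusted p = 8.3e-06). CLDN4 rose by 2.2 (SE 0.21) and TRAF1 by 2.27 (SE 0.22), both with an edgeR adjusted p of 4.93e-05. MYEOV rose by 1.58 and CDH13, an adhesion molecule anchored in the membrane by a lipid, fell by 1.39. PRSS33, CA11, JUP and SPATA18 did not pass in DESeq2 (adjusted p 0.347, 0.0886, 0.0564 and 0.0532).

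A smaller set stood apart from every other library, SREBF1 reagents included. In edgeR's quasi-likelihood test of S4 against the other 5 libraries, 16 genes were higher (0.0982%) and 27 lower (0.166%) of 16297, with 1785 at an unadjusted p under 0.05. The lone library is here taken to vary as the other 5 do, with 4 residual degrees of freedom. COL8A1, ZC3HC1, DNAJC6, AGTPBP1, SEPTIN8, DHTKD1, RPE and RTN4 fell, by 1.23 to 2.17 on the log2 scale, with edgeR adjusted p between 0.00234 and 0.00451. Further down, and named after their values were seen, were genes of high level: PSAP, the precursor of the lysosomal saposins, at 1950 to 2190 CPM in the other 5 libraries and 1270 in S4, LARP1, a binder of ribosomal protein messages, at 399 to 458 and 241, and HARS1, a histidine tRNA synthetase, at 141 to 152 and 83.3. KNL1, a kinetochore scaffold, stood at 40.2 to 48.5 CPM in the other 5 and 22.9 in S4. HARS1 passed without each library in turn. PSAP and LARP1 did not pass when mock, siNegative or ASO-Neg was left out, and KNL1 did not without siNegative or without ASO-Neg. SREBF1 did not pass this test (log2 difference -1.24, SE 0.76). The siSREBF1 and S1 libraries, in which SREBF1 was low as well, were among the 5 that S4 was compared with.

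The 16 genes that rose against all 5 others had several roles. BCAN-AS1 rose by 2 (edgeR adjusted p = 0.00653), ENC1 by 1.47 (0.00738) and SULF2 by 1.41 (0.00428). TCTN1 and TCTN2, tectonic proteins of the transition zone at the base of the primary cilium, stood at 31.4 to 37.1 and 20.5 to 23.7 CPM in the other 5 libraries and at 65.1 and 44.9 in S4. They rose by 0.91 and 1.02 (edgeR adjusted p = 0.0106 and 0.00542). The third tectonic gene, TCTN3, stood at 50.7 CPM in ASO-Neg and 58.6 in S4 and did not pass (edgeR adjusted p = 0.37). IGFBP6, which binds insulin-like growth factors, stood at 18.7 to 25.4 CPM in the others and 43.3 in S4, and its relative IGFBP2 at 36.2 to 42 and 66.1. MICAL2, an actin oxidase, and DGKA, a diacylglycerol kinase, rose by 1.25 and 0.91. Of the 43 calls, 20 were kept without mock, 20 without siNegative and 15 without ASO-Neg, and all 43 without siSREBF1 or without S1. Among the 15 were COL8A1, ZC3HC1, DNAJC6, AGTPBP1, SEPTIN8, DHTKD1, RPE, RTN4 and HARS1 of the lower genes and BCAN-AS1, ENC1, SULF2, TCTN1 and TCTN2 of the higher, and these also passed without each other library. IGFBP2, IGFBP6, MICAL2, DGKA and EPHA2 did not pass when any of the 3 controls was left out (edgeR adjusted p 0.054 to 0.149).

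Some rises against all 5 others were at low level. TINAGL1, a basement membrane protein, went from 1.35 CPM in ASO-Neg to 6.69 in S4, with 1.1 to 1.93 in the other 4. KLK6, a kallikrein protease, had 37 counts in S4 and 3 in ASO-Neg, a log2 ratio of 3.13 with a counting interval of 2.03 to 6.03. LAPTM5 and RAC2, which are best known from blood cells, had 48 and 31 counts in S4 against 7 and 5 in ASO-Neg. INPP5D, a phosphatase of the same kind of cell, stood at 9.45 CPM in S4 and 2.05 to 3.74 in the others. These low genes were named after their values were seen, and none of the 5 passed without ASO-Neg (edgeR adjusted p 0.0606 to 0.128). The summed level of the 9 immune markers in the same libraries was 3.5 CPM in S4 and 0.94 to 1.71 in the others, with NKG7 and MS4A1 at 0 in all 6 libraries and PTPRC at 0.614 CPM in S4. LYZ, 1 of the 3 measured markers, stood at 1.47 CPM in S4 and 0.235 to 0.446 in the others. The low-count filter keeps a gene that reaches its minimum in 1 library. Genes this low, LYZ and KLK6 among them, may have entered the tests through S4 alone. Their rises are then partly set by the filter, and nothing is concluded from them. The part of such cells in these rises was not tested.

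Genes of fatty acid synthesis were lower in S4, SCD and FASN most. Of 24 measured members of that list, 20 were below ASO-Neg, as 48.3% of all measured genes were, and the median log2 ratio was -0.25 beside 0.01 over all genes. The median was -0.29 in siSREBF1 over siNegative and -0.33 in S1 over ASO-Neg, which shares the ASO-Neg library. Against the 3 controls 6 fell and 1 rose, beside 3.02% and 2.99% of all genes. SCD, which makes monounsaturated fatty acids, had 4280, 3920 and 4130 CPM in mock, siNegative and ASO-Neg, 1950 in siSREBF1, 2340 in S1 and 2310 in S4. The S4 level was 56% of ASO-Neg (log2 ratio -0.84, interval -0.85 to -0.82) and fell by 0.83 against the controls (SE 0.086, edgeR adjusted p = 9.5e-05). FASN, the synthase that builds palmitate, stood at 1880, 1840 and 1670 CPM in mock, siNegative and ASO-Neg and at 1030 in S4, and fell by 0.8 against the controls (SE 0.091, edgeR adjusted p = 0.000175). In siSREBF1 and S1, FASN stood at 916 and 1230 CPM. ACLY and ACACA, which make acetyl-CoA and malonyl-CoA, went from 1240 to 958 and from 291 to 205 CPM between ASO-Neg and S4, and the activating enzymes ACSL1 and ACSL4 from 363 to 265 and from 155 to 115. In these 6 genes the S4 library lay below all 3 controls, though ACLY did not pass without siNegative (edgeR adjusted p = 0.0853). FADS3, of the fatty acid desaturase cluster, rose from 31.7 to 42.6 CPM, though not in DESeq2 (adjusted p = 0.116).

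Genes around SREBP itself moved less than SREBF1. Of 16 measured members of the sterol uptake and SREBP control list 3 fell and 0 rose, and the median log2 ratio was -0.14. The 3 were SREBF1 itself, which is the target of the ASO, INSIG1 and LPIN1, beside 3.02% of all genes lower and 2.99% higher. INSIG1, which retains the SREBP complex in the endoplasmic reticulum, stood at 532, 591 and 585 CPM in the controls, 298 in siSREBF1, 381 in S1 and 398 in S4. LPIN1, a phosphatidate phosphatase and known SREBP target, stood at 283, 303 and 309 CPM in the controls, 192 in siSREBF1, 214 in S1 and 209 in S4.

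The cholesterol synthesis list had no common direction: its 22 members split 11 above and 11 below ASO-Neg, with a median of -0.02, and 1 rose and 1 fell, beside 2.99% and 3.02% of all genes. TM7SF2, a sterol reductase, rose from 31.1 CPM in ASO-Neg to 48.3 in S4, and stood at 55.1 in siSREBF1 and 39.3 in S1. EBP, a sterol isomerase, fell from 82 to 47 (edgeR adjusted p = 0.00096), and was between 67.3 and 82 CPM in the other 5 libraries. Among glycerolipid and lipid droplet genes (23 measured, median 0), LPIN1 and PCYT2, an enzyme of phosphatidylethanolamine synthesis, fell and MGLL, monoglyceride lipase, rose. MGLL stood at 11.3, 11.7 and 18.2 CPM in mock, siNegative and ASO-Neg and 26.2 in S4, and did not pass in DESeq2 (adjusted p = 0.389). HADHA was the 1 of 24 fatty acid oxidation and PPAR genes that fell (584 to 451 CPM), and not without siNegative (edgeR adjusted p = 0.0509). ABCA1, the cholesterol exporter, was the 1 of 9 LXR targets that rose (12.7 to 19.9 CPM).

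**Figure D3:**
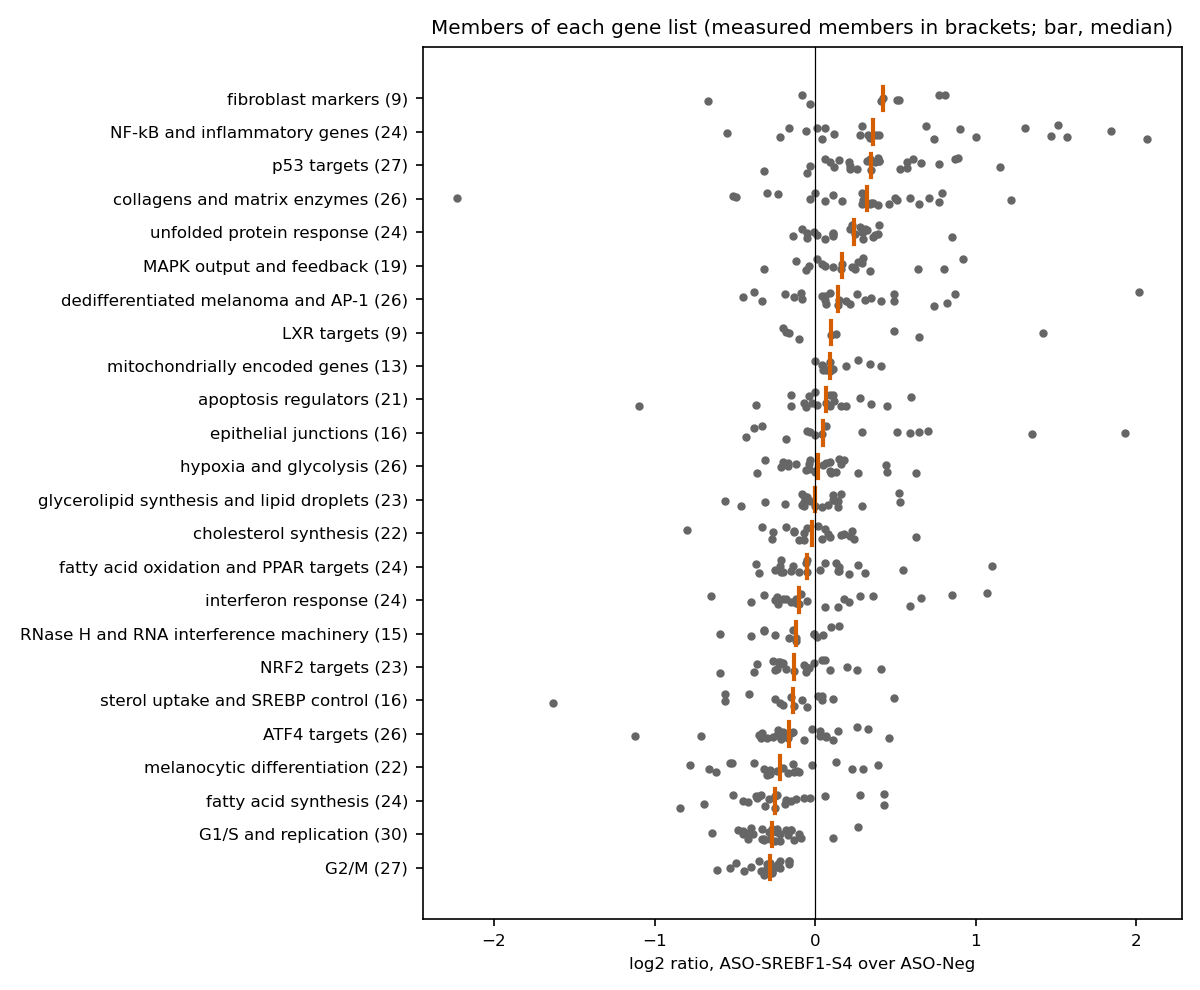
Log2 ratio of S4 to ASO-Neg for each measured member of the lists with 9 or more measured members, 1 point per gene, with the list's median as an orange bar; vertical scatter within a row has no meaning. The G2/M points all lie below 0 (median -0.28), while the p53 targets (median 0.35) and the NF-kB genes (median 0.36) lie mostly above it.

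Target genes of p53, the stress-activated tumour suppressor, were higher in S4. Of 27 measured members, 24 were above ASO-Neg, as 51.7% of all measured genes were. The median was 0.35 against ASO-Neg and 0.35 against mock. It was 0.11 in siSREBF1 over siNegative and 0.25 in S1 over ASO-Neg, which shares the ASO-Neg library. Against the controls 11 rose and 1 fell, beside 2.99% and 3.02% of all genes. CDKN1A, the cyclin-dependent kinase inhibitor p21, stood at 176, 165 and 164 CPM in mock, siNegative and ASO-Neg, 174 in siSREBF1, 228 in S1 and 280 in S4. It rose by 0.73 (SE 0.078, edgeR adjusted p = 0.0001). MDM2, the ligase that degrades p53, stood at 162, 164 and 175 CPM in the controls and 266 in S4, and rose by 0.68 (SE 0.079, edgeR adjusted p = 0.000215). For both genes S4 was the highest library and the controls lay within a narrow band.

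Other p53 targets with a rise were BTG2, an antiproliferative factor, at 22.8 CPM in ASO-Neg and 41.7 in S4, and RRM2B, the p53-induced ribonucleotide reductase subunit, at 63.3 and 94.1. TP53I3, an oxidoreductase, and SPATA18, a factor of mitochondrial quality control, stood at 8.48 and 4.53 CPM in ASO-Neg and 15.8 and 10.2 in S4. In S1 they stood at 14.3 and 5.62 CPM. SESN1, TP53INP1, XPC, FDXR and PPM1D made up the rest, with log2 ratios of 0.39 to 0.66. SPATA18, SESN1, TP53INP1 and PPM1D did not pass in DESeq2 (adjusted p 0.0532, 0.0847, 0.0768 and 0.112). CCNG1, cyclin G1, fell from 291 to 233 CPM (edgeR adjusted p = 0.049), though not without siNegative (0.127) or in DESeq2 (0.0593). GDF15, a secreted stress factor, had a log2 ratio of 0.57 against ASO-Neg and 0 against mock, since mock stood at 215 CPM like S4, and it did not pass.

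All 27 measured G2/M genes were below ASO-Neg and all 27 below every control, as 32.1% of measured genes were. Their median was -0.28 against ASO-Neg and -0.19 against mock, and ASO-Neg itself lay 0.12 above mock. The median was -0.12 in siSREBF1 over siNegative and -0.13 in S1 over ASO-Neg, which shares the ASO-Neg library. Only MKI67 and KIF20A passed the test against the controls, as 3.02% of all genes did in that direction. MKI67, the proliferation antigen Ki-67, stood at 257, 276 and 302 CPM in the controls, 240 in siSREBF1, 241 in S1 and 198 in S4 (edgeR adjusted p = 0.00732). KIF20A, a kinesin of cytokinesis, stood at 126, 126 and 135 CPM in the controls and 93.2 in S4. Of 30 G1/S and replication genes, 28 were below ASO-Neg with a median of -0.27 (-0.19 against mock), and 4 fell. These were CDT1, which licenses replication origins (29.5 to 18.8 CPM), and the helicase subunits MCM2, MCM4 and MCM7 (111 to 84.2, 239 to 182 and 398 to 325). MCM4 and MCM7 did not pass without siNegative (edgeR adjusted p 0.0658 and 0.131). CCND1, cyclin D1, was above ASO-Neg at 362 and 436 CPM and did not pass.

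Of 24 measured genes of the unfolded protein response, 19 were above ASO-Neg with a median of 0.24 (0.25 against mock), and 4 rose and 0 fell, beside 2.99% and 3.02% of all genes. The median was 0.01 both in siSREBF1 over siNegative and in S1 over ASO-Neg, which shares the ASO-Neg library. ERO1B, an oxidase that drives disulfide formation, stood at 35.6, 46 and 40.5 CPM in mock, siNegative and ASO-Neg, 82.7 in siSREBF1, 43.6 in S1 and 73.3 in S4 (rise of 0.84, SE 0.11, edgeR adjusted p = 0.000653). HSPA5, the chaperone BiP, stood at 1150, 1360 and 1260 CPM in the controls and 1630 in S4 (edgeR adjusted p = 0.0249). XBP1, a transcription factor of this response, went from 78.6 to 98.2 CPM and DNAJB11, a BiP co-chaperone, from 70.8 to 93.5. Of the members that did not pass, HYOU1 stood at 442 and 579 CPM, HSP90B1 at 2470 and 3020, and PDIA4 at 665 and 819. ATF4 targets, the amino acid branch of the stress response, had a median of -0.16. In edgeR's test 0 of 26 passed, with 8 at an unadjusted p under 0.05, as 21.1% of all genes were.

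The promoters of 3 of these 4 genes hold the endoplasmic reticulum stress response element, and they are shown as examples among the genes that rose. The motif searched was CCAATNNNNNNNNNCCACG, on either strand, in the 250 bases before the start of RefSeq genes (GRCh38.p14). It was found in 7 of 23 matched list members (30.4%) and in 15 of 11600 measured genes with a promoter entry (0.129%). CANX, HSP90B1, CALR and CRELD2 of the list also held it and did not pass the test against the controls. It was in 0 of 26 matched 2-fold higher genes. The match lay 243 bases before the start in ERO1B, 66 in HSPA5 and 52 in XBP1. The regions are chr1:236281959-236282208 for ERO1B, chr9:125241344-125241593 for HSPA5 and chr22:28800570-28800819 for XBP1, all on the minus strand, and capitals mark the match, which in ERO1B reads on the opposite strand. For cell division, the letters TTTGAA of the cell cycle gene homology region were found on either strand in 11 of 22 matched G2/M genes (50%) and in 991 of the 11600 (8.54%). They were in 1 of 22 matched 2-fold lower genes (4.55%). MKI67 holds them 47 and 29 bases before its start, in chr10:128126424-128126673 on the minus strand. Such matches describe the letters of these windows and not binding.
ERO1B: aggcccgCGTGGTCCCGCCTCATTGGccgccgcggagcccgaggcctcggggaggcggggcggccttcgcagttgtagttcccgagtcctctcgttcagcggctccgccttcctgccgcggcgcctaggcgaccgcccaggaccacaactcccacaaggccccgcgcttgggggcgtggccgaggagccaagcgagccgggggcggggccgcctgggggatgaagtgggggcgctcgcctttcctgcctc
HSPA5: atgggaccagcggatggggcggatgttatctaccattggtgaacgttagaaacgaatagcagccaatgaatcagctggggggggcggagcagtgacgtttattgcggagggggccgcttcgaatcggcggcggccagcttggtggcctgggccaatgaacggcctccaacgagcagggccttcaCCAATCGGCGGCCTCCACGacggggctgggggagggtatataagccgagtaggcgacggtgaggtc
XBP1: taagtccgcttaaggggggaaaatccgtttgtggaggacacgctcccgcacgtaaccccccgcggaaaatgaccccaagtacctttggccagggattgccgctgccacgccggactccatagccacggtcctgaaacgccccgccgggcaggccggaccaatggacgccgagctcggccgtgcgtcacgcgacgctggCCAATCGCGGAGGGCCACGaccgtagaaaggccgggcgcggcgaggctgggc
MKI67: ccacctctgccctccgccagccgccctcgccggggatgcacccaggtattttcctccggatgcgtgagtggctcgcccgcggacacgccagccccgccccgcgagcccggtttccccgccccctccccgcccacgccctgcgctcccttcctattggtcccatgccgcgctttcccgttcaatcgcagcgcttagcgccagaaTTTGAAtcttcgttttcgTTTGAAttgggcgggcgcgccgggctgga

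The sterol response element was also searched. The letters TCACNCCAC were present on either strand in 0.819% of the 11600 promoters, in 1 of 21 matched fatty acid synthesis genes (MID1IP1), in 1 of 13 of the sterol and SREBP list (SREBF2) and in 0 of 17 cholesterol synthesis genes. They were in 0 of 26 matched 2-fold higher genes and 0 of 22 matched 2-fold lower genes. Of the E2F-type letters searched, TTTGGCGC was in 5 of 25 G1/S genes (20%) against 0.862% of the 11600, and TTTCGCGC in 2 of 25 (8%) against 0.828%.

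Of 24 measured NF-kB and inflammatory genes, 20 were above ASO-Neg with a median of 0.36 (0.28 against mock), 6 rose and 0 fell, beside 2.99% and 3.02% of all genes. Of these 6 only TNFAIP2 had over 10 CPM in ASO-Neg. Besides TRAF1 and CXCL8, they were BIRC3, an inhibitor of apoptosis (2.24 CPM in ASO-Neg and 6.38 in S4), IL1A, interleukin 1 alpha (0.765 and 2.45), RELB, a subunit of NF-kB (5.3 and 8.9), and TNFAIP2 (14.9 and 24.1). IL1A, RELB and TNFAIP2 did not pass in DESeq2 (adjusted p 0.176, 0.352 and 0.16). Of the classical subunits and feedback genes, RELA stood at 81.9 CPM in ASO-Neg and 82.6 in S4, NFKB1 at 78.9 and 81.4, and TNFAIP3 at 32.7 and 35.6. The median of the same list was 0.56 in siSREBF1 over siNegative and 0.32 in S1 over ASO-Neg, which shares the ASO-Neg library. Interferon-stimulated genes had a median of -0.1 over 24 measured members, and BST2, which tethers budding virus particles, was the 1 that rose (6 to 10.9 CPM), though not in DESeq2 (adjusted p = 0.144).

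Among apoptosis regulators (21 measured, median 0.07), BCL2 fell from 16.2 CPM in ASO-Neg to 7.49 in S4, with 14.8 and 13 in mock and siNegative (edgeR adjusted p = 0.00508). BCL2A1, its relative in the melanocyte lineage, fell from 46.6 to 35.9 CPM and MCL1 rose from 366 to 467. All 3 are survival proteins of the BCL2 family. Over all genes 3.02% were lower and 2.99% higher, so nothing is read from the number of members. BCL2A1 was short of the threshold in DESeq2 (adjusted p = 0.0501).

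**Figure D4:**
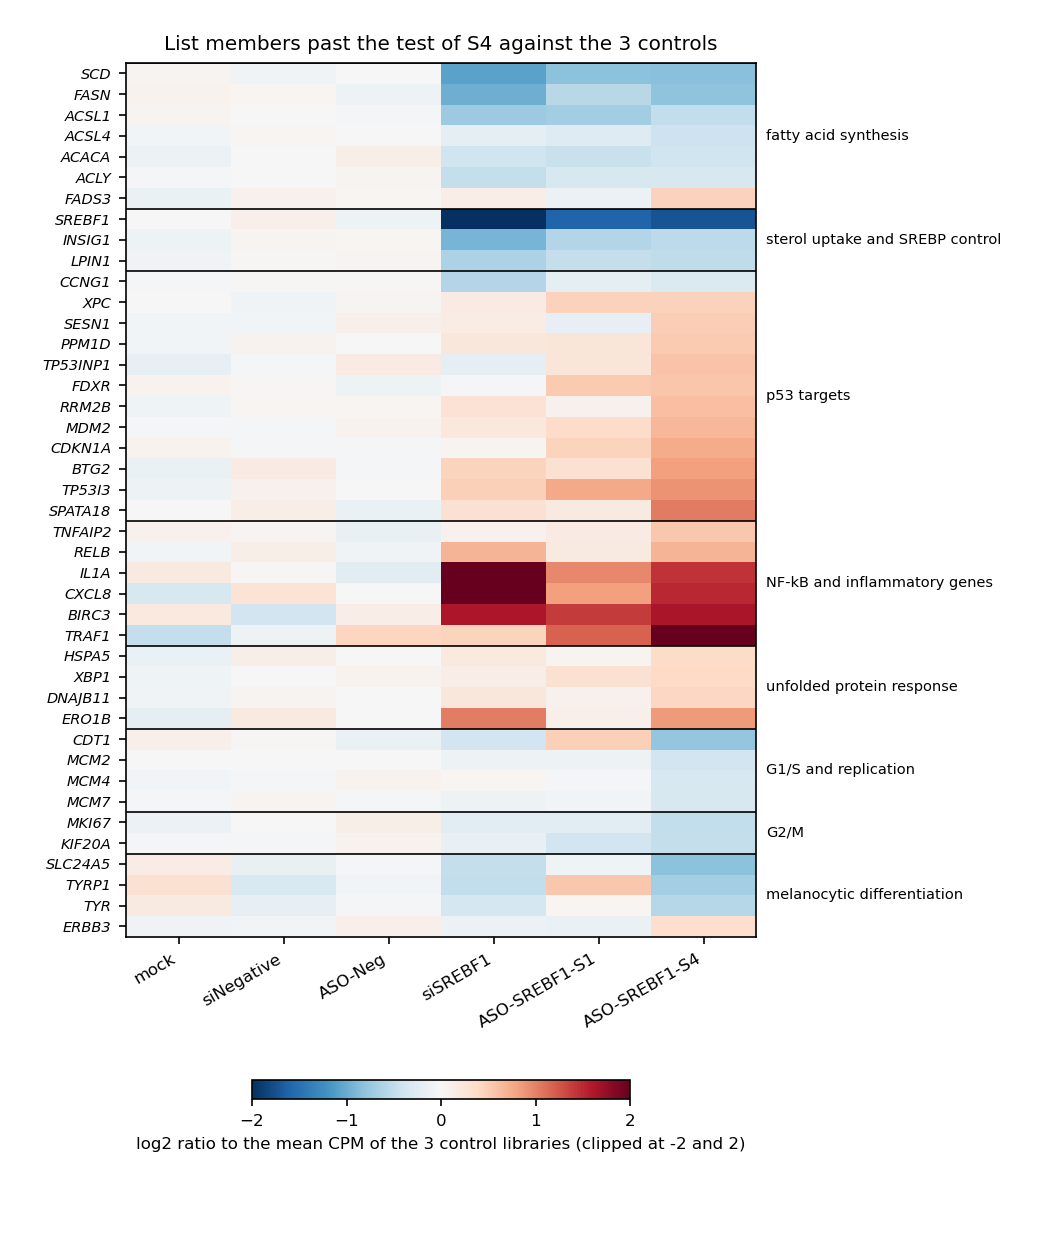
Colour gives the log2 ratio of a library's CPM to the mean of the 3 controls, for the members of 8 lists that passed edgeR's test of S4 against those controls; columns are the 6 libraries. The genes were picked by the S4 column. SCD, FASN and INSIG1 are blue with all 3 SREBF1 reagents, while CDT1 is blue in S4 (18.8 CPM) and red in S1 (44.9 CPM).

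Pigment genes were lower in S4, and also lower in ASO-Neg than in mock. Of 22 measured melanocytic differentiation genes, 18 were below ASO-Neg, as 48.3% of all measured genes were, with a median of -0.22. The median was -0.45 against mock, and that of ASO-Neg over mock was -0.21. The members that fell or rose are named next, beside 3.02% of all genes lower and 2.99% higher. TYR, tyrosinase, stood at 254, 201 and 218 CPM in mock, siNegative and ASO-Neg, 176 in siSREBF1, 231 in S1 and 151 in S4 (edgeR adjusted p = 0.00913). TYRP1, a related melanosome enzyme, stood at 155, 101 and 120 CPM in the controls, 181 in S1 and 78 in S4. SLC24A5, a melanosome ion exchanger, fell from 15 to 8.65 CPM. TYRP1 did not pass in DESeq2 (adjusted p = 0.432) and SLC24A5 did not with unstranded counts (adjusted p = 0.418). ERBB3, a receptor of neuregulins, rose from 503 to 588 CPM, though not without siNegative (edgeR adjusted p = 0.104). In bulk RNA, fewer cells in a pigmented state and less of these RNAs per cell cannot be told apart.

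Of 26 measured members of the dedifferentiation and AP-1 list, 7 rose and 1 fell, beside 2.99% and 3.02% of all genes, with a median of 0.14. NGFR, the nerve growth factor receptor of neural crest cells, stood at 42, 56.4 and 59.5 CPM in the controls, 48.9 in siSREBF1, 88.3 in S1 and 109 in S4 (rise of 1.04, SE 0.13, edgeR adjusted p = 0.000374). AXL, a receptor tyrosine kinase, stood at 99.2, 118 and 113 CPM in the controls and 188 in S4 (rise of 0.77, SE 0.092, edgeR adjusted p = 0.000239). CCN1 and CCN2, matricellular targets of YAP, went from 7.59 to 13.5 and from 17 to 24 CPM. FN1 and AMOTL2 rose, and VIM, the intermediate filament vimentin, fell from 3920 to 3130 CPM. FN1, CCN2 and AMOTL2 did not pass in DESeq2 (adjusted p 0.251, 0.224 and 0.207), and neither FN1 nor VIM passed without siNegative (edgeR adjusted p 0.0675 and 0.183).

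Of 19 measured genes of MAPK output and feedback, 5 rose and 0 fell, beside 2.99% and 3.02% of all genes, with a median of 0.17 (0.23 against mock). EPHA2, an ephrin receptor, stood at 26.1, 29 and 27.3 CPM in the controls, 31.7 in siSREBF1, 32.6 in S1 and 51.5 in S4. EGR1 went from 16.7 to 29.1 CPM and IER3 from 47.3 to 73.6. DUSP6 and SPRED1, feedback inhibitors of the pathway, rose from 105 to 133 and from 109 to 134 CPM, though neither did in DESeq2 (adjusted p 0.0722 and 0.132). DUSP6 did not pass without siNegative (edgeR adjusted p = 0.0851), nor SPRED1 without mock (0.0607). DUSP4 stood at 409 CPM in ASO-Neg and 420 in S4, and SPRY4 at 303 and 355.

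The collagens went in different directions. Of 26 measured collagens and matrix enzymes, 19 were above ASO-Neg with a median of 0.32, or 0.2 against mock, and 4 rose and 2 fell, beside 2.99% and 3.02% of all genes. COL4A2, a chain of basement membrane collagen, fell with COL8A1. It stood at 616, 619 and 569 CPM in the controls and 404 in S4 (edgeR adjusted p = 0.00127), while its partner COL4A1 stood at 347 in ASO-Neg and 295 in S4. COL12A1 and COL16A1 rose from 37.8 to 53.6 and from 49.7 to 86 CPM. So did the enzymes that hydroxylate proline and lysine in collagen, P4HA1 (180 to 220) and PLOD1 (402 to 509), the latter not without siNegative (edgeR adjusted p = 0.0655). In several other collagens ASO-Neg was the lowest of the controls. COL6A2 stood at 87 and 91 CPM in mock and siNegative, 65 in ASO-Neg and 85.4 in S4, and COL9A3 at 208 and 212, 153 and 211.

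Of 26 listed genes of epithelial junctions, 16 were measured with a median of 0.05, and 4 rose, namely CLDN4, JUP, DSP and KRT18, beside 2.99% of all genes. JUP, plakoglobin, stood at 6.74, 6.98 and 4.71 CPM in mock, siNegative and ASO-Neg, 10.7 in siSREBF1 and 12.1 in S4. DSP, desmoplakin, went from 22.9 to 32.7 CPM and KRT18, a simple epithelial keratin, from 15.7 to 24.7. CDH1 and EPCAM, which define epithelial cells, stood at 0.184 and 0.123 CPM in S4, which is 3 and 2 counts.

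The next lists had 1 or 2 called members each, beside 3.02% of all genes lower and 2.99% higher, so nothing is read from their counts. Of 23 NRF2 targets, PGD and TKT fell, both enzymes of the pentose phosphate pathway, from 196 to 130 and from 983 to 754 CPM. Of 26 hypoxia and glycolysis genes, GPI alone fell (631 to 509). Of 15 genes of the RNase H and RNA interference machinery, DROSHA, the nuclease that starts microRNA processing, fell from 153 to 102 CPM, with 144 to 171 in the other 4 libraries. RNASEH2C fell from 41.3 to 31.4, though not in DESeq2 (adjusted p = 0.202) or without siNegative (edgeR adjusted p = 0.054), and RNASEH1, the enzyme used by many ASOs, stood at 38.2 and 34.1. Mitochondrially encoded genes summed to 54200 CPM in ASO-Neg and 57900 in S4, and MT-ND3 was the 1 of 13 that rose, and not without siNegative (edgeR adjusted p = 0.104).

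Markers of other cell types were few. The 11 fibroblast markers summed to 734, 949 and 769 CPM in mock, siNegative and ASO-Neg and 1010 in S4, of which COL1A2 alone made 873 in S4. COL1A1 stood at 1.47 CPM, THY1 at 0.184 and POSTN at 0.0614. ACTA2 rose (23.3 to 31.3 CPM, DESeq2 adjusted p = 0.144) and LUM fell (80.5 to 50.4). The 9 keratinocyte markers summed to 23.8 CPM in ASO-Neg and 30.1 in S4, nearly all of it KRT10 (28.2 in S4), with KRT1 at 0 in all libraries. The 7 endothelial markers summed to 51.3 and 59 CPM, mostly KDR and EGFL7, with CLDN5 at 0 in all libraries. The part of other cells in any result was not tested.

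The siSREBF1 library against siNegative, and the S1 library against mock, share no library with S4 over ASO-Neg. Of the 42 higher genes, 3 were also 2-fold higher in siSREBF1 over siNegative (7.14% of 42 and 10.3% of 29): CXCL8, MMP1 and ENSG00000272405. Of the 27 lower genes, 3 were lower there too (11.1% of 27 and 14.3% of 21): FABP7, IL21R and SREBF1. In S1 over mock, SSUH2 and CXCL8 were higher (4.76% of 42 and 11.1% of 18) and IL21R, CDH13 and SREBF1 lower (11.1% of 27 and 8.33% of 36). In those contrasts 0.294% and 0.213% of genes were 2-fold higher and lower for siSREBF1, and 0.183% and 0.367% for S1. The overlaps were not tested.

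At 1.5-fold, 35 of the 213 higher genes were also higher in siSREBF1 over siNegative (16.4%, and 28.2% of the siSREBF1 genes) and 18 of the 139 lower genes were lower (12.9% of each list), with 4 and 1 in the opposite direction. In that contrast 1.26% of genes were 1.5-fold higher and 1.41% lower. Among the 18 lower genes shared with siSREBF1 were SCD, FASN, PGD, BCL2 and PRUNE2. In S1 over mock, 18 of the 213 were higher (8.45%, and 21.4% of the S1 genes) and 13 were lower. Of the 139, 22 were lower (15.8%, and 11.6% of the S1 genes) and 2 were higher. There 0.856% of genes were 1.5-fold higher and 1.93% lower. Across the 9855 genes the log2 ratios had a Pearson r of 0.28 and a Spearman rho of 0.23 with siSREBF1 over siNegative, and of 0.15 and 0.13 with S1 over mock. Genes are not independent replicates, and the ratios differ in depth, so these describe the libraries.

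The lower genes were long. The genomic span, introns included, had a median of 150 kb in the 27 lower genes and 35.7 kb in all 9855, and 16 of the 27 (59.3%) exceeded 100 kb, as 20.9% of all did. The 42 higher genes had a median of 28.4 kb and 11.9% over 100 kb. The exon length differed less, at 7.93 kb for the lower and 5.79 kb for all. The 27 genes lower than in all 5 other libraries had a median span of 135 kb. CDH13 (1170 kb) was the longest of the 2-fold lower genes and FABP7 (4.36 kb) the shortest.

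The share of 1.5-fold lower genes was highest in the longest bins. It was 0.592% of 1519 protein-coding genes under 10 kb, 1.22% of 1806 between 50 and 100 kb, 2.35% of 1279 between 100 and 200 kb, and 5.96% of 738 above 200 kb. For higher genes it was 2.76% in the shortest bin and 0.813% (6 genes) in the longest. The median log2 ratio was -0.027 in the shortest bin and -0.099 in the longest. Against mock it was -0.073 and -0.059, so the medians did not keep that order. In other contrasts, the 36 genes lower in S1 over mock had a median span of 106 kb, with 50% above 100 kb, and the 21 lower in siSREBF1 over siNegative 49.9 kb, with 33.3%. The difference between reagents was not tested, nor was the part of span or of the longer genes' counts in these results.

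**Figure D5:**
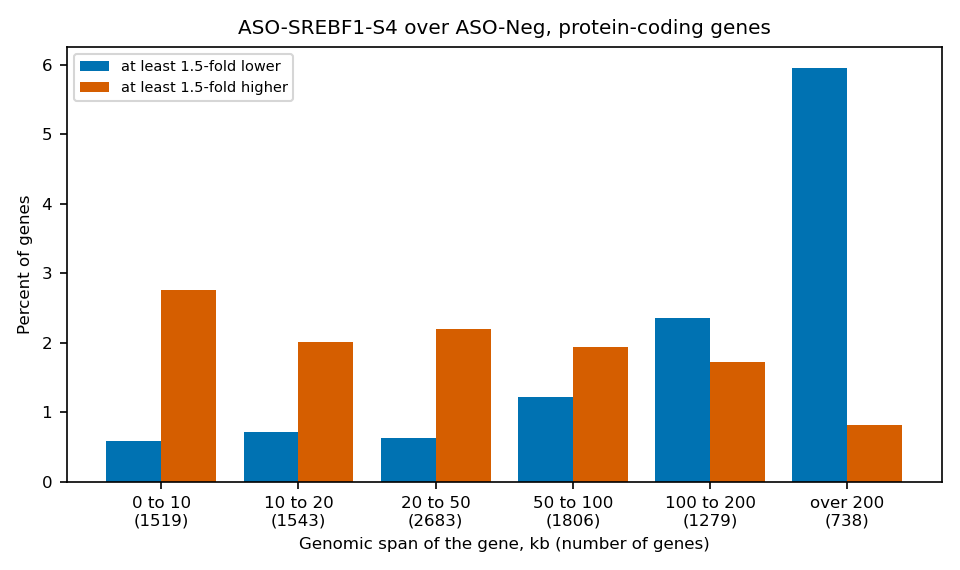
Percent of protein-coding genes with at least 10 CPM that were 1.5-fold lower (blue) or higher (orange) in S4 than in ASO-Neg, by genomic span in kb, with the number of genes in brackets. The blue bars go from 0.592% to 5.96% and the orange bars from 2.76% to 0.813%.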

How the data were processed

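Polyadenylated RNA was sequenced as strand-specific read pairs, per the labels' protocols. The authors deposited raw gene-level read counts in a separate file for each lane, aligned with STAR 2.6.1a to GRCh38, per the submitters' processing notes; the sources used here do not name the annotation. The reverse-strand column was used (the other strand held 6.47% to 7.79%). Reads naming no gene, 18.18% to 19.35% of pairs, were left out. Of 58735 gene lines, 58207 matched GENCODE release 44 (99.93% of counts), which gave symbols and GRCh38 coordinates. DDX58 had no match by symbol. The number of columns from samples of other series was 0.

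By the series text the 4 lanes are technical. Within a library they differed by a chi-square per degree of freedom of 1 to 1.07, against 1.92 to 8.8 between libraries, and were summed. P-values of the tests measure only the spread between single libraries, which may be technical. Log2 ratios compare TMM-scaled CPM after adding a prior count of 2, and their exact binomial intervals at 95% cover counting error only. The size rule asked for 2-fold and 10 CPM in 1 of the 2 libraries. The tests were edgeR 4.0.16 quasi-likelihood fits (R 4.3.3) with filterByExpr and Benjamini-Hochberg adjustment at 0.05 over 16297 genes, 2-sided; "rose" and "fell" mean passing against the 3 controls unless stated. Alternatives used DESeq2 1.42.0, limma 3.58.1 (voom), other scaling, filters, strand and controls, and left-out lanes and libraries.

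Members, marker genes and the 27 gene lists were chosen with earlier results of these data known. Named genes were SREBF1, SREBF2, the markers COL8A1, ZC3HC1, CLDN4 and TRAF1, the 15 highest and 15 lowest ratios, the 8 highest and 8 lowest of each test with 10 CPM, and up to 6 members per list by size of ratio; list members past the test are named as well, and a few list members are not reported here. On simulated counts with 200 changed genes, the test against the controls recovered 94% of changes of 1 (log2) and 100% of changes of 2, with 9 false calls in 15853 genes. The test against the other 5 recovered 96% and 100% with 10 false calls, and the size rule 37% and 98% with 1 false call in 16297. The simulated libraries shared 1 mean per gene and 1 fixed dispersion, and only genes with a mean of 10 CPM or more were changed. They held no differences between control reagents, so these rates do not carry over to the calls in the real libraries.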

Additional observations from a re-analysis of the deposited data

Results flagged for a closer look

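GAS6-AS1, a non-coding RNA at the GAS6 locus, went opposite ways with S4 and with the SREBF1 siRNAs. It stood at 7.89 CPM in ASO-Neg and 20.9 in ASO-SREBF1-S4, a log2 ratio of 1.4, and at 11.5 CPM in siNegative and 7.22 in siSREBF1, a log2 ratio of -0.66. The difference between the contrasts was not tested.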

How the results depend on the processing

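The counts moved with the low-level filter and the tool. With 5 CPM as the minimum, 85 genes were 2-fold higher, and with no minimum 685 were higher and 194 lower; leaving out a lane gave 42 to 45 and 28 to 33. The SREBF1 ratio was -1.73 against the mean of the 3 controls and -1.66 to -1.59 without a lane. Against the 3 controls DESeq2 called 184 higher and 323 lower and kept 494 of 979 calls, and no filter gave 745 lower. Leaving out a lane or control gave 436 to 833 higher and 475 to 1038 lower, the highest both without ASO-Neg, which kept all 979. Against the other 5, higher and lower calls were 72 and 119 in DESeq2, 28 higher in limma-voom, 90 and 88 with no filter, and 5 to 85 and 10 to 55 without 1 library or lane. They were 5 and 10 without ASO-Neg, 7 and 13 without mock, 9 and 13 without siNegative, 36 and 47 without S1, and 85 and 55 without siSREBF1. FAM219A reversed to -0.01 with mock as the control, and GPS2 and ENSG00000269968 were also below mock. No other named ratio counted as reversed among the scaling, prior count, strand and lane alternatives run. A change of sign in a small ratio did not count: APOE, an LXR target, had 0.13 against ASO-Neg and -0.33 against mock. With mock as the control, 94 of 173 named ratios counted as moved and 78 as the same. With the mean of the 3 controls, 47 counted as moved and 126 as the same. Against mock, 55 genes were 2-fold higher and 40 lower, beside 42 and 27 against ASO-Neg. The cause was not tested beyond which libraries entered. No paired analysis was possible because the replicate numbers are lanes of 1 library. Depth limits genes near 3 counts, such as KLK6 in ASO-Neg.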
